A study of Mus musculus with 15 samples.

Results

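The report concerns 10 genes that mark the endothelium of the liver: Stab1, Stab2, Clec4g, Oit3, Fcgr2b, Gpr182, Lyve1 and Kdr, which mark the sinusoids in part or whole, and Egfl7 and Vwf, which mark blood vessels more widely. They were picked by name, and each was read from the probe set that carried its symbol alone and had the highest mean over the arrays. All 10 were found among the 19938 genes with such a probe set.

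The liver sinusoid is a capillary lined by endothelial cells with open pores, called fenestrae, and with almost no basement membrane. These cells clear waste macromolecules from the blood through scavenger receptors and lectins, and they send growth signals to hepatocytes. In chronic liver injury they can lose these features and come to resemble ordinary capillaries, a change known as capillarization that is marked by basement membrane proteins, Cd34 and adhesion molecules.

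The 15 arrays each held RNA from the whole liver of a different mouse. The mice formed 5 groups of 3, on a C57BL/6 background, and were labelled male and aged 8 weeks. Mice called NEMO/Jnk1 DKO or NEMO/Jnk2 DKO lacked Jnk1 or Jnk2 in every cell and had lost NEMO through a Cre recombinase driven by the albumin promoter, which acts in hepatocytes. Jnk1 KO and Jnk2 KO mice lacked only the kinase, also in every cell, and WT mice carried the loxP-flanked (floxed) NEMO gene intact. Endothelial cells of the double knockouts therefore kept NEMO but lacked the same kinase as those of the single knockouts, and a group without NEMO but with both kinases is not among these samples. NEMO is the subunit through which the IkB kinase complex activates NF-kB, and Jnk1 and Jnk2 are stress-activated kinases.

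In 2 arrays expression went against the NEMO label. Ly6d read 9.70 and 10.1 in the arrays labelled Jnk2 KO replicate 3 and Jnk1 KO replicate 1, against 7.88 to 10.5 in the double knockouts and 4.67 to 5.35 in the 7 remaining arrays of NEMO-intact mice. Ikbkg, which encodes NEMO, read 6.24 and 6.75 in them, against 6.18 to 6.85 in the double knockouts and 7.03 to 7.41 in those 7 arrays. In addition 3 arrays labelled male had a female pattern of Xist and Y-linked genes, namely those labelled Jnk1 KO replicate 1 and NEMO/Jnk1 DKO replicates 1 and 2. Results are therefore given as labelled, without the 2 doubted arrays and, where it matters, with a term for this sex pattern. Only NEMO/Jnk1 DKO and Jnk1 KO hold arrays of both patterns, so the term rests on those groups. In Jnk1 KO it cannot be told apart from the pattern of the doubted replicate 1. The values were log2 levels, and the median of an array lay between 4.26 and 4.38. A level of 4.09 has 40% of the values below it, and all 10 markers lay above this level in all 15 arrays.

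No difference of any of the 10 markers between groups passed the test. In each of the 9 comparisons 0 of 10 passed (limma, Benjamini-Hochberg adjusted p under 0.05 over all 19938 genes), as labelled and without the 2 doubted arrays. At an unadjusted p under 0.05, as labelled, 1 of 10 passed between NEMO/Jnk1 DKO and Jnk1 KO (4.55% of all genes), between NEMO/Jnk1 DKO and NEMO/Jnk2 DKO (5.44%), between Jnk1 KO and Jnk2 KO (7%) and in the difference of the NEMO effects (2.75%). It was 0 of 10 in the other 5 comparisons, where 7.91% of all genes passed between NEMO/Jnk2 DKO and Jnk2 KO and 16.3%, 18.9%, 5.58% and 12.1% did in NEMO/Jnk1 DKO, NEMO/Jnk2 DKO, Jnk1 KO and Jnk2 KO against WT. The levels were highest on average in NEMO/Jnk1 DKO livers, where all 10 means were above those of WT livers with a median log2 difference of 0.16, or 9 of 10 with a median of 0.12 when a sex term was fitted. Over the 27 other settings described at the end, this median ran from 0.08 to 0.21. In NEMO/Jnk2 DKO livers the median was 0.02 above WT, with 6 means higher and 4 lower. Of 15 genes of capillary and venous endothelium, such as Vcam1, Cd34 and the basement membrane collagens, 13 had higher means than WT in each double knockout. As labelled 0 of these 15 passed in NEMO/Jnk1 DKO livers (0.0652% of all genes), while 2 did in NEMO/Jnk2 DKO livers (2.63%). Without the 2 doubted arrays 7 passed in each, against 7.91% and 10.6% of all genes. Genes of stellate cells and macrophages moved with them. The arrays measure RNA of the whole liver, so a change in the number of endothelial cells and one in their RNA per cell cannot be told apart.

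The promoters of 3 markers are shown because their levels moved together from liver to liver, as described further on, and that of Clec4g because its level was the most different between the effects of NEMO loss on both backgrounds. Each is the 250 bases before the gene's start in RefSeq's GRCm38.p6 annotation, in lower case. Capitals mark matches on either strand to the cores bound by factors of endothelial gene control: CAGGAA or CCGGAA for ETS factors, TGCTGA for MAF factors, and for GATA factors AGATAA with the variant AGATAG and TGATAA with the variant TGATAG.
Stab1 promoter, chr14:31168642-31168891, minus strand: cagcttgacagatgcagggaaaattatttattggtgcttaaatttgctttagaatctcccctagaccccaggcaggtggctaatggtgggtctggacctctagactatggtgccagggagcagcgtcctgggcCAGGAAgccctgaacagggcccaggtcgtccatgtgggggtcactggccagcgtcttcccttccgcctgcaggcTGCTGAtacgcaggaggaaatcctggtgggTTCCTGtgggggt
Stab2 promoter, chr10:87007943-87008192, minus strand: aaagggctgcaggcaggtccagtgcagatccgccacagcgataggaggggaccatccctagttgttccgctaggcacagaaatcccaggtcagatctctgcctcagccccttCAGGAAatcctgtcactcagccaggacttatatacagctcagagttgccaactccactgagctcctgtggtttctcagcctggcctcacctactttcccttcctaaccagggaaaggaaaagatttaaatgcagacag
Kdr promoter, chr5:75978456-75978705, minus strand: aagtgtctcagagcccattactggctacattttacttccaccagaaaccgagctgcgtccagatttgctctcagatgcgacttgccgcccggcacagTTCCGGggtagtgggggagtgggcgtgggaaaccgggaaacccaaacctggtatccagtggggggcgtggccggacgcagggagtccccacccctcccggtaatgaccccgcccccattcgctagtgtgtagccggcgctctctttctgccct
Clec4g promoter, chr8:3720652-3720901, minus strand: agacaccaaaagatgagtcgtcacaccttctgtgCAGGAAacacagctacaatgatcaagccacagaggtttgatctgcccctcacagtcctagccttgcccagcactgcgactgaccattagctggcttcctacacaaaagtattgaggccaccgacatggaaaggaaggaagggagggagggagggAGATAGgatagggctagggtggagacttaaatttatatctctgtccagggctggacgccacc
In these windows Stab1 had an ETS core 117 to 112 bases before the start, another on the opposite strand 13 to 8 bases before it, and a MAF core 43 to 38 bases before it. Stab2 had 1 ETS core, 138 to 133 bases before the start, and Kdr had 1 on the opposite strand, 153 to 148 bases before it. The Clec4g window held an ETS core 216 to 211 bases and a GATA core 62 to 57 bases before the start.
RefSeq's table held 8 windows for 6 of the 10 markers, 3 of them for Egfl7 and 1 for Fcgr2b. An ETS core was present in 6 of the 8 windows, against 35.1% of 32851 windows of the same length over all genes. A GATA core was present in 4 of 8, against 26.5%, and a MAF core in 2 of 8, against 16.1%. The GATA windows were all 3 of Egfl7 and that of Clec4g, and the MAF windows were 1 of Egfl7 and that of Stab1. Of the ETS windows 2 were of Egfl7. Windows of the same gene are not independent, so these counts overstate the number of genes. The Fcgr2b window held none of these cores. The AP-1 core TGANTCA, which Jun proteins bind and through which JNK signals act, was present in 0 of 8 windows, against 6.75% of all. With so low a share over all genes, 8 windows are too few to show a lack of it. In 1 Egfl7 window the GATA and MAF matches overlapped. Lyve1, Oit3, Gpr182 and Vwf had no entry.

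Levels are given below as log2 values in the order of replicates 1, 2 and 3, so that the doubted arrays are the first Jnk1 KO value and the third Jnk2 KO value. Levels of different genes come from different probes and are not compared with each other.

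Stab1 and Stab2 encode stabilin-1 and stabilin-2, large scavenger receptors with which sinusoidal cells take up hyaluronan and modified proteins. Stab1 read 7.25, 7.56 and 7.74 in NEMO/Jnk1 DKO livers and 7.21, 7.39 and 7.30 in NEMO/Jnk2 DKO livers. It read 7.38, 7.49 and 7.18 in Jnk1 KO livers, 7.64, 7.38 and 7.15 in Jnk2 KO livers and 7.24, 7.64 and 7.44 in WT livers. All 5 groups overlapped, with the lowest and the highest array in Jnk2 KO and NEMO/Jnk1 DKO. Stab2 read 8.05, 8.16 and 8.17 in NEMO/Jnk1 DKO livers and 7.81, 7.95 and 8.14 in NEMO/Jnk2 DKO livers. It read 8.11, 8.06 and 7.80 in Jnk1 KO livers, 8.19, 7.93 and 7.76 in Jnk2 KO livers and 7.88, 8.24 and 8.01 in WT livers. Its group means lay within 0.16 of each other, and 26.3% of all genes had a smaller range of means.

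Fcgr2b encodes an inhibitory receptor for immunoglobulin G that clears immune complexes in the sinusoid and is also made by B cells and macrophages. It read 7.69, 7.60 and 7.65 in NEMO/Jnk1 DKO livers and 7.47, 7.71 and 7.89 in NEMO/Jnk2 DKO livers. The level was 7.79, 7.49 and 7.53 in Jnk1 KO livers, 7.46, 7.42 and 7.58 in Jnk2 KO livers and 7.14, 7.57 and 7.66 in WT livers. WT had the lowest mean, with its replicate 1 the lowest of the 15 arrays, while its other arrays lay among those of the double knockouts.

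Clec4g encodes LSECtin, a C-type lectin of sinusoidal endothelium that binds glycans and T cells. Its levels were 9.85, 10.46 and 9.72 in NEMO/Jnk1 DKO livers and 9.56, 9.84 and 9.53 in NEMO/Jnk2 DKO livers. They were 9.82, 9.44 and 9.78 in Jnk1 KO livers, 9.95, 10.09 and 9.77 in Jnk2 KO livers and 9.42, 9.88 and 9.57 in WT livers. The means were 10.01 ± 0.39, 9.64 ± 0.17, 9.68 ± 0.21, 9.94 ± 0.16 and 9.63 ± 0.23 in the same order of groups (SD, n = 3 each). NEMO/Jnk1 DKO replicate 2, one of the arrays with the female pattern, was the highest of all 15. A further Clec4g probe set lay between 3.03 and 3.42 in every array and was not used.

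Oit3 encodes a secreted protein with a zona pellucida domain that sinusoidal cells make. It read 7.84, 7.83 and 7.83 in NEMO/Jnk1 DKO livers and 7.72, 7.96 and 7.81 in NEMO/Jnk2 DKO livers. The values were 7.70, 7.86 and 8.02 in Jnk1 KO livers, 7.88, 7.75 and 7.72 in Jnk2 KO livers and 7.54, 7.96 and 7.94 in WT livers. It was the steadiest marker between groups, with means within 0.08 of each other, and 2.82% of all genes had a smaller range of means.

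Gpr182 encodes an atypical chemokine receptor of sinusoidal and lymphatic endothelium. It read 6.71, 6.72 and 6.73 in NEMO/Jnk1 DKO livers and 6.44, 6.78 and 6.72 in NEMO/Jnk2 DKO livers. The level was 6.57, 6.69 and 6.52 in Jnk1 KO livers, 6.88, 6.72 and 6.76 in Jnk2 KO livers and 6.68, 6.49 and 6.61 in WT livers. All 3 Jnk2 KO arrays were above all WT and all Jnk1 KO arrays, by little.

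Lyve1 encodes a hyaluronan receptor that marks midlobular sinusoids and lymphatic vessels and is also found on some macrophages. Its levels were 6.82, 6.66 and 6.72 in NEMO/Jnk1 DKO livers and 7.02, 7.27 and 6.54 in NEMO/Jnk2 DKO livers. They were 6.36, 5.97 and 6.67 in Jnk1 KO livers, 7.50, 6.32 and 7.11 in Jnk2 KO livers and 6.34, 6.64 and 6.31 in WT livers. The means were 6.73 ± 0.08, 6.94 ± 0.37, 6.33 ± 0.35, 6.97 ± 0.60 and 6.43 ± 0.18 in the same order of groups (SD, n = 3 each). It varied most of the 10 markers, over 1.53 log2 units in the 15 arrays, and its standard deviation within groups of 0.37 was larger than that of 94.2% of all genes. The spread was widest in Jnk2 KO livers, where replicate 2 lay among the WT values and the other arrays lay above them.

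Kdr encodes VEGF receptor 2, through which vascular endothelial growth factor keeps endothelial cells alive and fenestrated. It read 8.27, 8.39 and 8.24 in NEMO/Jnk1 DKO livers and 7.78, 8.16 and 8.18 in NEMO/Jnk2 DKO livers. The level was 8.23, 8.28 and 8.09 in Jnk1 KO livers, 8.34, 8.06 and 8.01 in Jnk2 KO livers and 7.94, 8.56 and 8.32 in WT livers. The 3 NEMO/Jnk1 DKO arrays lay above the 3 NEMO/Jnk2 DKO arrays, and both double knockouts lay within or below the range of WT.

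Egfl7 encodes a matrix protein that endothelial cells secrete when vessels sprout, and its gene hosts a microRNA of endothelial cells. It read 7.32, 7.19 and 7.36 in NEMO/Jnk1 DKO livers and 7.03, 7.13 and 6.80 in NEMO/Jnk2 DKO livers. The values were 7.15, 6.85 and 7.08 in Jnk1 KO livers, 6.95, 7.06 and 6.81 in Jnk2 KO livers and 6.99, 7.12 and 7.10 in WT livers. Its mean was 7.29 ± 0.09 in NEMO/Jnk1 DKO, 6.98 ± 0.16 in NEMO/Jnk2 DKO and 7.07 ± 0.07 in WT livers (SD, n = 3 each). All 3 NEMO/Jnk1 DKO arrays lay above the 12 others, and the next highest was the array labelled Jnk1 KO replicate 1, which shares the female pattern with NEMO/Jnk1 DKO replicates 1 and 2.

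Vwf encodes von Willebrand factor, a clotting protein of larger vessels and platelets that sinusoidal cells make little of until they take on the features of capillaries. It read 6.04, 5.79 and 5.89 in NEMO/Jnk1 DKO livers and 5.75, 5.76 and 5.86 in NEMO/Jnk2 DKO livers. The level was 6.07, 5.38 and 5.65 in Jnk1 KO livers, 5.79, 5.44 and 6.07 in Jnk2 KO livers and 5.60, 5.71 and 5.55 in WT livers. Its mean was 5.91 ± 0.13 in NEMO/Jnk1 DKO, 5.79 ± 0.06 in NEMO/Jnk2 DKO and 5.62 ± 0.08 in WT livers (SD, n = 3 each). The 2 highest values of all belonged to the 2 doubted arrays, and all arrays of both double knockouts lay above all WT arrays.

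**Figure D1:**
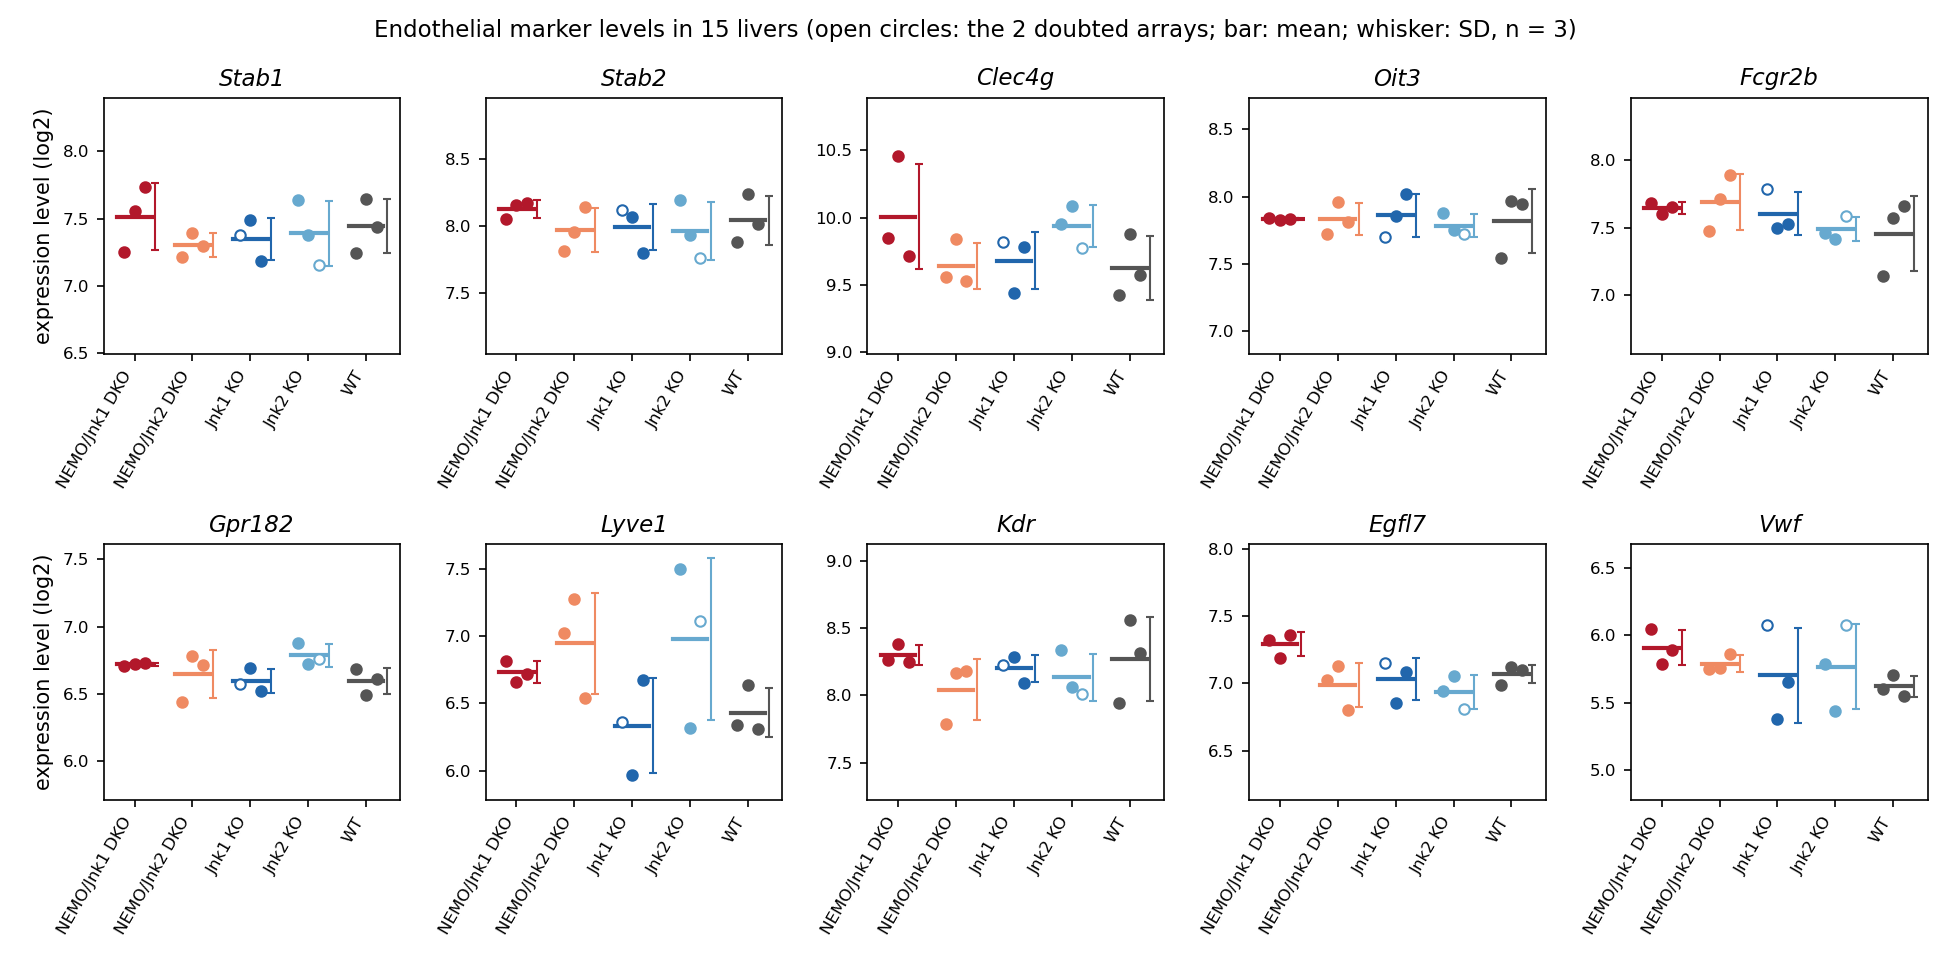
Expression level (log2) of each marker in each of the 15 livers, by group, with the group mean as a bar, the standard deviation (n = 3) as a whisker, and the 2 doubted arrays as open circles. Panels span the same number of log2 units, so that the wide scatter of Lyve1 and the narrow one of Oit3 and Gpr182 can be compared, and the groups overlap in most panels.

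The loss of NEMO in hepatocytes was read by setting each double knockout against the single knockout of the same kinase. Between NEMO/Jnk1 DKO and Jnk1 KO 9 of the 10 markers were higher on average, with a median log2 difference of 0.15, and 0 of 10 passed the test, as did 0% of all genes. The lowest p belonged to Egfl7, at 0.26 (SE 0.11, adjusted p = 0.962). Arrays did not overlap, with NEMO/Jnk1 DKO higher, for Egfl7 and Gpr182, that is for 2 of 10 markers against 2.52% of all genes. Without the 2 doubted arrays 5.18% of all genes passed, and still 0 of 10 markers. Vwf then had the lowest p (0.39, SE 0.13, adjusted p = 0.102), followed by Egfl7 (0.32, SE 0.12, adjusted p = 0.149). A sex term rests here in part on the doubted Jnk1 KO replicate 1, the only array of its group with the female pattern. Fitted with all arrays and the sex term, Egfl7 was at 0.25 (adjusted p = 1.00) and Vwf at 0.11 (adjusted p = 1.00).

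Between NEMO/Jnk2 DKO and Jnk2 KO the markers were balanced, with 5 means higher and 5 lower and a median difference of -0.01. Again 0 of 10 passed, against 0.00502% of all genes, and 0 of 10 had arrays that did not overlap, against 11.7% of all genes. Clec4g had the lowest p, at -0.29 (SE 0.18, adjusted p = 0.732). In the fit without both doubted arrays 5.85% of all genes passed and 0 of 10 markers, and Clec4g was at -0.38 (SE 0.20, adjusted p = 0.37).

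The effect of NEMO loss on the Jnk1-null background was also set directly against that on the Jnk2-null background. The difference of the effects passed the test for 0 of 10 markers, against 0% of all genes as labelled and 0.01% without the doubted arrays. The intervals as labelled ran from -0.58 for Fcgr2b to 1.22 for Lyve1. Clec4g was farthest apart, with a difference of the effects of 0.62 (SE 0.26, 95% interval 0.06 to 1.18, adjusted p = 1.00) as labelled and of 0.78 (SE 0.29, adjusted p = 0.627) without the doubted arrays.

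Against WT, NEMO/Jnk1 DKO livers had higher means for 10 of 10 markers, by 0.02 for Oit3 to 0.38 for Clec4g, while the median over all genes was -0.04. Of the 3 NEMO/Jnk1 DKO arrays 2 had the female pattern and no WT array did. With the sex term 9 of 10 were higher, Kdr stood at -0.01, and the median was 0.12. Clec4g was then at 0.17 (SE 0.21, adjusted p = 0.959), Vwf at 0.09 (SE 0.19, adjusted p = 0.984) and Lyve1 farthest from WT at 0.28 (SE 0.33, adjusted p = 0.952). For Vwf the sex term rests mainly on the doubted Jnk1 KO replicate 1, at 6.07 against 5.38 and 5.65 in its group. In NEMO/Jnk1 DKO the female-pattern arrays read 6.04 and 5.79 against 5.89. Sex and the pattern of the doubted array cannot be told apart here. Of the 10 as labelled 0 passed, against 0.0652% of all genes. Clec4g had the lowest p (0.38, SE 0.18, adjusted p = 0.321). For Lyve1, Gpr182, Vwf and Egfl7 all 3 NEMO/Jnk1 DKO arrays lay above all 3 WT arrays, which makes 4 of 10 markers against 11.5% of all genes. Leaving out the doubted arrays does not change these arrays, only the estimate of the spread; 7.91% of all genes then passed and 0 of 10 markers, with the lowest p for Vwf (0.29, SE 0.11, adjusted p = 0.156). Platelets, another source of Vwf, had list means between 0.08 and 0.14 above WT in NEMO/Jnk1 DKO livers and between -0.09 and 0.05 in WT livers. The list mean was 0.15 in Jnk2 KO replicate 2. Without the doubted arrays 2 of 7 platelet genes passed, both higher, where 4.92% of all genes rose: Pf4 (0.42, SE 0.10, adjusted p = 0.0246) and Ppbp (0.44, SE 0.11, adjusted p = 0.0302). Of the 7 platelet genes 5 had higher and 2 lower means than WT, with a median difference of 0.05. The part of platelets in the Vwf values was not tested. Kupffer cell genes, which mark the macrophages of the sinusoid, averaged 0.39 to 0.73 above WT in NEMO/Jnk1 DKO, 0.00 to 0.60 in NEMO/Jnk2 DKO and -0.34 to 0.23 in WT arrays. WT replicate 1 was the lowest array for them as for the average of the 10 markers. Without the doubted arrays 4 of 9 rose in NEMO/Jnk1 DKO against WT (Vsig4, Cd5l, Folr2 and Marco) and 1 fell (Cd163), where 7.91% of all genes passed. Their part in the marker levels was not tested.

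NEMO/Jnk2 DKO livers were compared with the same WT arrays, so both results share their controls. Here 0 of 10 markers passed, against 2.63% of all genes. Lyve1 had the lowest p, at 0.52 (SE 0.26, adjusted p = 0.314), and Kdr the largest difference in the other direction, at -0.23. Vwf alone had arrays that did not overlap with those of WT, being higher, against 11.8% of all genes. Without the doubted arrays 10.6% of all genes passed and 0 of 10 markers, and Lyve1 kept the lowest p (adjusted p = 0.286).

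The 95% intervals bound the size of a change that these data allow. Over the 4 comparisons of a double knockout with its single knockout or with WT, the intervals as labelled ran from -0.69 (Clec4g between NEMO/Jnk2 DKO and Jnk2 KO) to 1.08 (Lyve1 between NEMO/Jnk2 DKO and WT), or from 0.62-fold to 2.11-fold. For the 8 markers other than Clec4g and Lyve1 they ran from -0.55 for Kdr to 0.65 for Vwf, or from 0.68-fold to 1.57-fold. A fall of Stab1, Stab2 or Kdr to less than 0.68-fold of its control lay outside the interval in all 4 comparisons, also without the doubted arrays. Clec4g between NEMO/Jnk2 DKO and Jnk2 KO then reached down to -0.81, or 0.57-fold.

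The single knockouts were also set against WT. In Jnk1 KO livers 0 of 10 markers passed, against 0.01% of all genes, and 0 of 10 had arrays apart from those of WT, against 8.66% of all genes. The lowest p was that of Fcgr2b (0.15, SE 0.14, adjusted p = 0.879). In Jnk2 KO livers 0 of 10 passed, against 0.411% of all genes, with Lyve1 lowest in p (0.55, SE 0.26, 95% interval -0.02 to 1.11, adjusted p = 0.426), and Gpr182 alone was higher without overlap, against 6.16% of all genes. Between Jnk1 KO and Jnk2 KO 0 of 10 passed, against 0.13% of all genes. Lyve1 was again first by p (-0.64, SE 0.26, adjusted p = 0.621) and Gpr182 the only marker whose arrays did not overlap, lower in Jnk1 KO, against 3.51% of all genes. Without the doubted arrays 0 of 10 markers passed in each of these 3 comparisons, against 0.015%, 1.24% and 0.597% of all genes.

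NEMO/Jnk1 DKO livers were higher than NEMO/Jnk2 DKO livers in the means of 8 of 10 markers, with a median difference of 0.14. Of these 0 passed, against 0.105% of all genes. Egfl7 had the lowest p (0.31, SE 0.11, adjusted p = 0.665), and with the sex term it stood at 0.28 (adjusted p = 0.71). Egfl7 and Kdr had arrays that did not overlap, that is 2 of 10 markers against 7.12% of all genes. Without the doubted arrays 0.321% of all genes passed and 0 of 10 markers, Egfl7 again being lowest in p (adjusted p = 0.404). Of the 10 possible pairs of groups, NEMO/Jnk1 DKO with Jnk2 KO and NEMO/Jnk2 DKO with Jnk1 KO were not compared. Each of these pairs differs in NEMO, Jnk1 and Jnk2 at once. In the order of each marker's group means, no 2 neighbours that were compared passed the test.

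**Figure D2:**
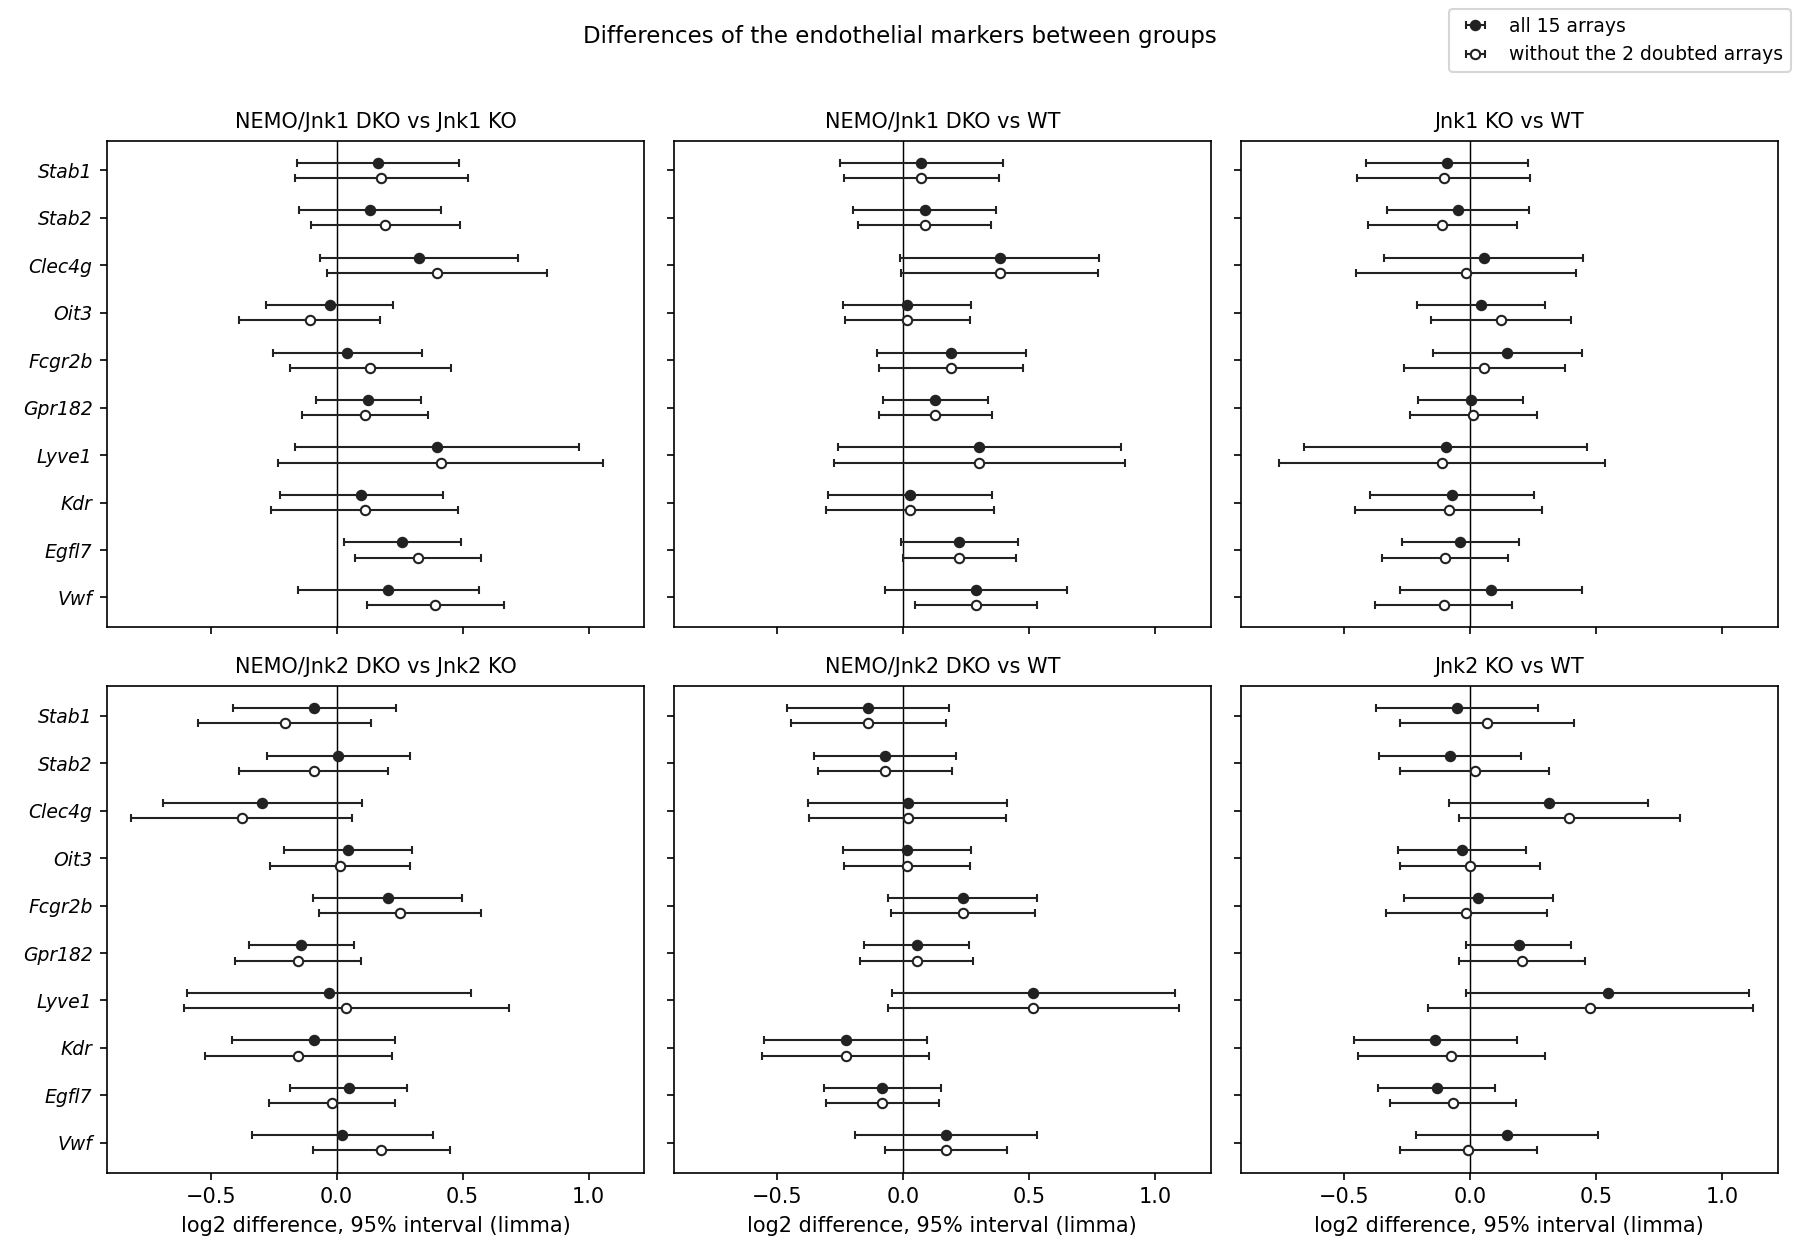
Log2 difference of each marker with its 95% interval (limma) in 6 comparisons, from all 15 arrays (filled) and without the 2 doubted arrays (open). Most intervals cross 0; that of Egfl7 between NEMO/Jnk1 DKO and Jnk1 KO lies above it in both fits, with an adjusted p of 0.962 and 0.149.

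The markers did not all vary together from liver to liver. Of their 45 pairs 39 correlated positively over the 15 arrays, with a median Pearson's r of 0.23, and 3 pairs passed a permutation test adjusted over the 45 pairs. These 3 join Stab1, Stab2 and Kdr. Stab2 and Kdr had r = 0.84 (permutation p = 8e-05, adjusted p = 0.0036) and Spearman's rho 0.83 (permutation p = 0.00033, adjusted p = 0.0074). Stab1 and Stab2 had r = 0.82 (permutation p = 0.00027, adjusted p = 0.0061) and rho 0.87 (permutation p = 8e-05, adjusted p = 0.0036). Stab1 and Kdr had r = 0.73 (permutation p = 0.0019, adjusted p = 0.0292) and rho 0.80 (permutation p = 0.00064, adjusted p = 0.0096).
The relations held when the 2 arrays farthest from the median of the first gene were left out, with r of 0.88, 0.78 and 0.74. With each array taken relative to its group mean r was 0.84, 0.81 and 0.69. Within the 6 double-knockout arrays r was 0.87 for Stab2 with Kdr, 0.64 for Stab1 with Stab2 and 0.55 for Stab1 with Kdr, and within the 9 other arrays it was 0.87, 0.95 and 0.87. WT livers show the span: replicate 1 was the lowest and replicate 2 the highest WT array for all 3 genes. The next pair, Kdr with Oit3, had r = 0.58 (permutation p = 0.0245, adjusted p = 0.276). Lyve1, the most variable marker, had r between -0.10 and 0.01 with these 3 over the 15 arrays. Within the 6 double-knockout arrays its r was -0.77 with Stab2, -0.46 with Kdr and -0.265 with Stab1. Within the 9 other arrays it lay between 0.04 and 0.10.

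**Figure D3:**
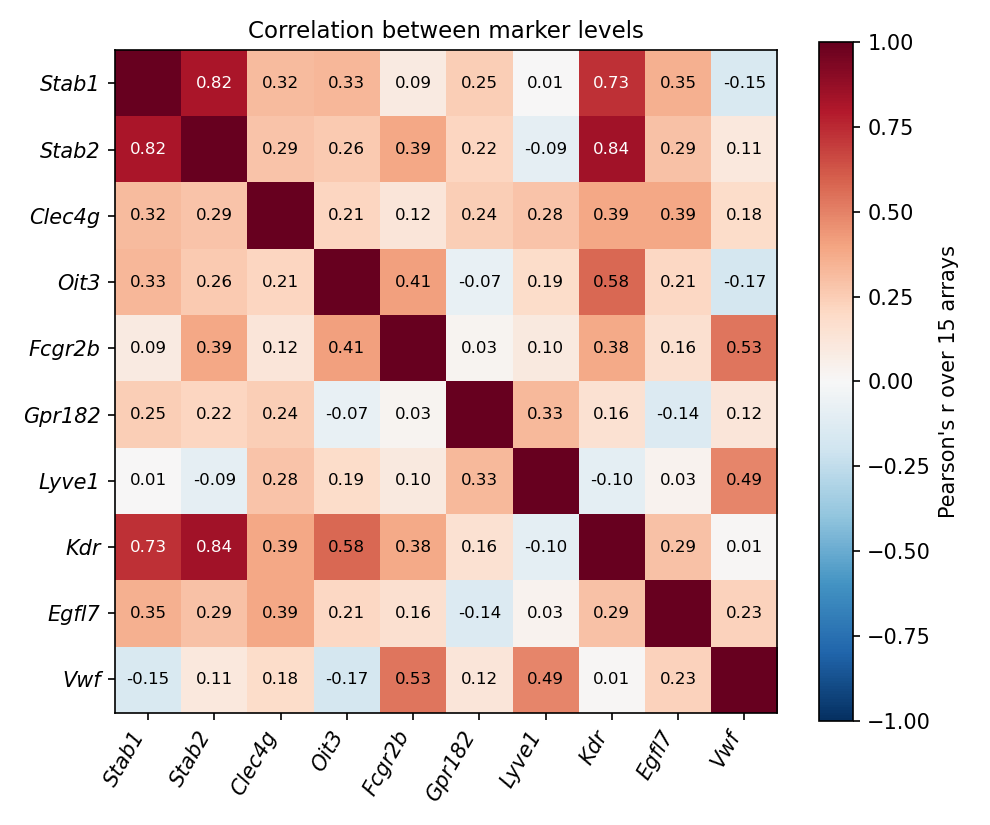
Pearson's r between the levels of each pair of markers over the 15 arrays, on a colour scale from -1 to 1, with r printed in each square. Stab1, Stab2 and Kdr form the darkest squares, at 0.73 to 0.84, and Lyve1 is near 0 against all 3.

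The mean profile of the 10 markers, each scaled to its own mean and standard deviation, was highest in Jnk2 KO replicate 1 and NEMO/Jnk1 DKO replicate 2 and lowest in WT replicate 1. Outside the marker lists used here, the genes with the highest correlation to this profile were Riox2, Ctdspl and Hmgxb4 (r = 0.81 each), Grap (r = 0.80), Caprin2 (r = 0.79) and Garre1 (r = 0.78), over n = 15 arrays. Among the listed genes Mrc1, the mannose receptor that sinusoidal cells share with macrophages, was first at r = 0.85, followed by Esam, a junctional adhesion molecule of endothelium, at 0.82. Next came Clec1b and Maf at 0.81 each and Alb, a hepatocyte gene, at 0.73. The other hepatocyte genes measured ranged widely. Ttr was at 0.64, Cps1 at 0.48, Apob at 0.28 and Apoa1 at 0.16. Fgb was at 0.07, Hnf4a at 0.01 and Tat, the only negative one, at -0.10. Apart from these other hepatocyte genes, the genes named are the top of a ranking and are given as a description.

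Other endothelial genes were counted in lists by role. Of the 20 pan-endothelial genes, such as the junction and adhesion genes Cdh5 and Pecam1, 0 passed as labelled in any comparison with WT or of NEMO loss. Their median difference from WT was 0.19 in NEMO/Jnk1 DKO livers and, in NEMO/Jnk2 DKO livers, 0.00. When the doubted arrays were left out 2 of 20 rose in NEMO/Jnk1 DKO against WT, where 4.92% of all genes did: Cd93, a C-type lectin-like receptor of endothelium and myeloid cells (0.84, SE 0.13, adjusted p = 0.0016), and Pecam1, or CD31 (0.44, SE 0.11, adjusted p = 0.0232). In NEMO/Jnk2 DKO 2 of 20 rose, where 5.75% of all genes did: Cd93 again (0.74, SE 0.13, adjusted p = 0.0026) and Ecscr, an endothelial surface protein (0.41, SE 0.12, adjusted p = 0.0418).

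Of 14 further sinusoidal genes, which include the transcription factors Gata4 and Maf, 0 passed as labelled in those comparisons. The median difference from WT was 0.13 in NEMO/Jnk1 DKO livers and, in NEMO/Jnk2 DKO livers, 0.01. With the doubted arrays left out only Il1a, an inflammatory cytokine, rose in NEMO/Jnk1 DKO against WT (0.51, SE 0.13, adjusted p = 0.0317). That makes 1 of 14, where 4.92% of all genes rose. In NEMO/Jnk2 DKO 0 of 14 passed, against 10.6% of all genes.

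Angiocrine genes encode the signals that sinusoidal cells send to hepatocytes, among them Wnt2, Wnt9b and Rspo3, which set the pericentral programme, and Bmp2 and Bmp6, which drive hepcidin. The list used here also held Thbd, which encodes a receptor and not such a signal. Of 12 measured, 0 passed as labelled in those comparisons. Leaving out the doubted arrays, Hgf rose in NEMO/Jnk1 DKO against WT by 0.94 (SE 0.12, adjusted p = 0.00058). In NEMO/Jnk2 DKO it rose by 1.05 (SE 0.12, adjusted p = 0.000168). Hgf encodes hepatocyte growth factor and is also made by stellate cells. Thbd, the anticoagulant receptor thrombomodulin, rose in NEMO/Jnk1 DKO (0.98, SE 0.17, adjusted p = 0.0033) and was at 0.44 (adjusted p = 0.14) in NEMO/Jnk2 DKO. Thus 2 of 12 rose in NEMO/Jnk1 DKO and 1 of 12 in NEMO/Jnk2 DKO, where 4.92% and 5.75% of all genes did. The Wnt and Rspo3 genes lay between -0.09 and 0.59 of WT in the double knockouts and did not pass.

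Capillary and venous genes mark vessels with a basement membrane, and 15 were measured. Averaged over the list, NEMO/Jnk1 DKO arrays lay 0.50 to 0.57 and NEMO/Jnk2 DKO arrays 0.46 to 0.55 above the WT mean, both doubted arrays lay at 0.61, and WT arrays lay between -0.08 and 0.08. The same average over the 10 markers was 0.15 to 0.20 in NEMO/Jnk1 DKO, -0.06 to 0.16 in NEMO/Jnk2 DKO and -0.16 to 0.14 in WT arrays. As labelled 2 of 15 rose in NEMO/Jnk2 DKO against WT, where 0.873% of all genes did: Vcam1, a leukocyte adhesion molecule of activated endothelium that macrophages also carry (2.12, SE 0.44, adjusted p = 0.0285), and Lrg1, a secreted glycoprotein that acts on vessels and that hepatocytes also make in the acute phase (1.13, SE 0.27, adjusted p = 0.0431). In NEMO/Jnk1 DKO against WT 0 of 15 passed as labelled, Vcam1 being at 2.02 (SE 0.44, adjusted p = 0.0951).

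Vcam1 read between 7.70 and 8.18 in NEMO/Jnk1 DKO livers, between 7.66 and 8.24 in NEMO/Jnk2 DKO livers and between 5.53 and 6.29 in WT livers. Without the doubted arrays 7 of 15 capillary and venous genes rose and 0 fell in NEMO/Jnk1 DKO against WT, where 4.92% of all genes rose: Vcam1 (2.02, SE 0.21, adjusted p = 0.000167), Cd34, the classic marker of capillarized sinusoids (1.15, SE 0.25, adjusted p = 0.0143), Ednrb, an endothelin receptor (1.09, SE 0.15, adjusted p = 0.000893), Plvap, Col4a1, Col4a2 and Lamb1. In NEMO/Jnk2 DKO 7 of 15 rose, where 5.75% of all genes did: Vcam1 (2.12, SE 0.21, adjusted p = 6.12e-05), Lrg1 (1.13, SE 0.27, adjusted p = 0.016), Cd34 (0.95, SE 0.25, adjusted p = 0.0303), Plvap, Col4a1, Col4a2 and Lamb1. Plvap forms the diaphragm of closed fenestrae, and Col4a1, Col4a2 and Lamb1 encode chains of basement membrane collagen and laminin that stellate cells make as well. A fit to only the arrays compared, which does not use the doubted arrays at all, called 7 of 15 in NEMO/Jnk1 DKO, against 6.49% of all genes, and 8 of 15 in NEMO/Jnk2 DKO, against 9.62%. Against the single knockouts without the doubted arrays, 6 of 15 rose in NEMO/Jnk1 DKO livers, as did 4 of 15 in NEMO/Jnk2 DKO livers, where 4.05% and 3.88% of all genes did, with Vcam1 at 2.26 (SE 0.24, adjusted p = 0.000215) and 0.89 (SE 0.24, adjusted p = 0.0431). Since both arrays were doubted for a pattern shared with the double knockouts, these counts are no independent support. In Jnk2 KO livers themselves Vcam1 was also higher than in WT without these arrays (1.23, SE 0.24, adjusted p = 0.0222).

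Markers of other cells moved with these genes. Stellate cell genes averaged 0.80 to 0.93 above WT in NEMO/Jnk1 DKO, 0.60 to 0.75 in NEMO/Jnk2 DKO and -0.11 to 0.07 in WT arrays, and without the doubted arrays 6 of 12 rose in NEMO/Jnk1 DKO (4.92% of all genes) and 5 of 12 in NEMO/Jnk2 DKO (5.75%). Genes of macrophages other than Kupffer cells averaged 0.96 to 1.31, 1.12 to 1.42 and -0.23 to 0.17 in the same groups, and 8 of 10 and 9 of 10 rose. Their part in the rise of the capillary and venous genes was not tested. Of the 5 lymphatic genes measured 0 passed against WT in either double knockout, with and without the doubted arrays.

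**Figure D4:**
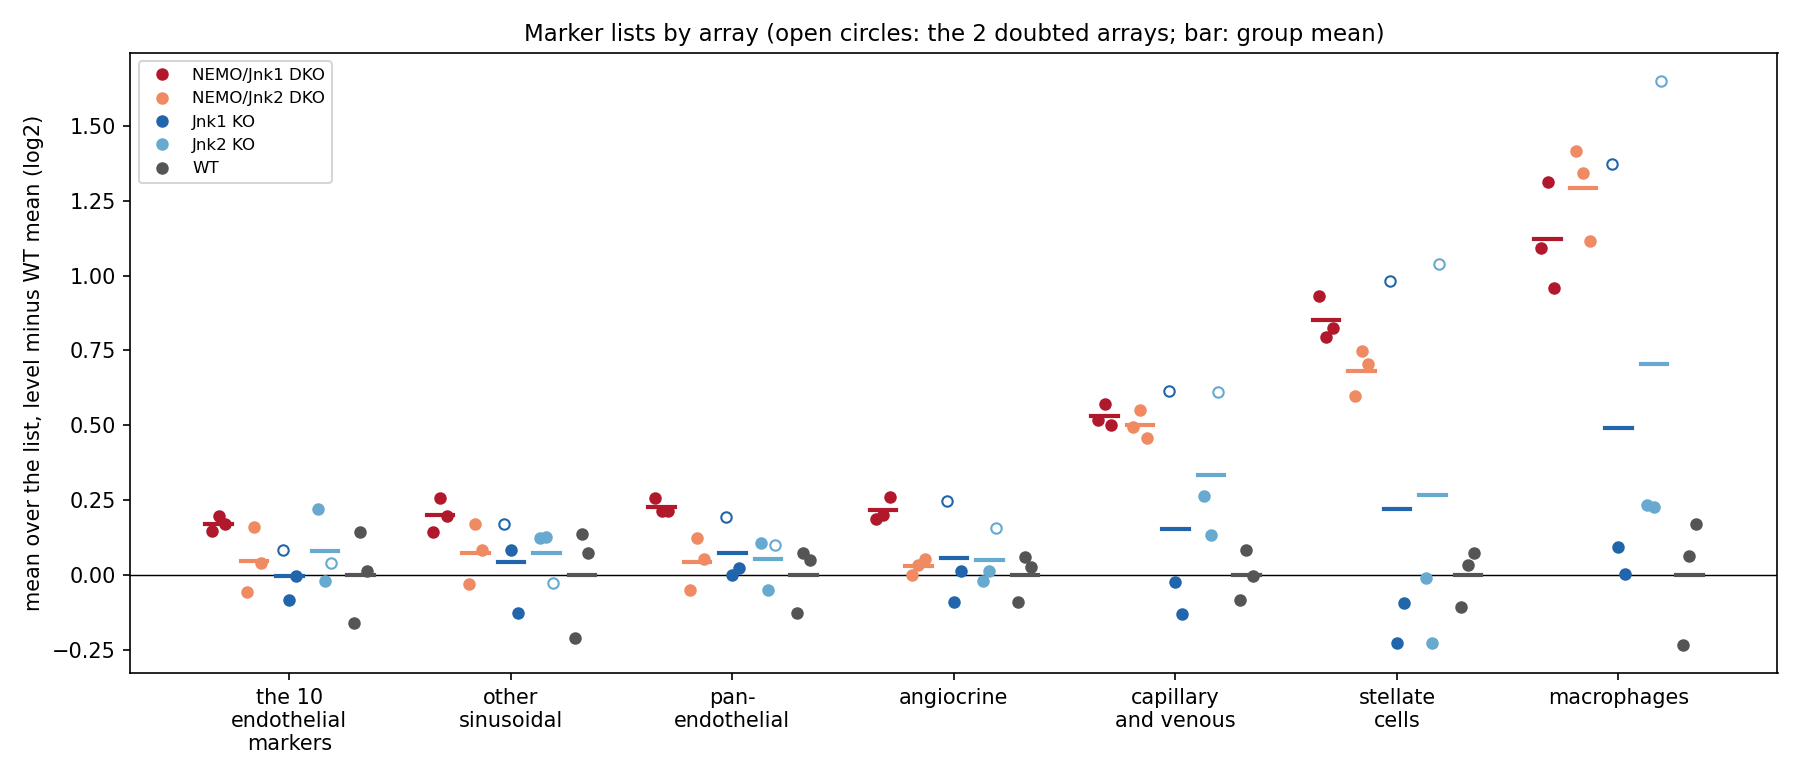
Mean over each gene list in each array, as log2 level minus the WT mean, by group, with group means as bars and the 2 doubted arrays as open circles. The 10 endothelial markers stay between -0.16 and 0.22 in all arrays, while capillary and venous, stellate and macrophage genes lie above WT in both double knockouts and in the doubted arrays.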

How the data were processed

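RNA of 15 livers was read on Affymetrix arrays. Per the submitters' processing notes RMA was used, without a version, to make the log2 values that the authors deposited; that the base is 2 follows only from their span, 1.14 to 13.91. Of 35556 probe sets 21789 had 1 symbol in the platform table, 1621 had several and 12146 were not listed; 1 probe set per symbol, that with the highest mean, gave 19938 genes. Groups follow the labels, in which every array has a mouse of its own. Differences were tested in R 4.3.3 by limma 3.58.1 (moderated linear models on all 15 arrays, 1 mean per group, 10 residual and 3.75 prior degrees of freedom, or 8 and 5.05 without the 2 doubted arrays) and adjusted by Benjamini-Hochberg over all genes. The number of arrays limits the precision. Correlations used 100000 two-sided permutations. The pipeline was tested on simulated data. Plots came from matplotlib 3.10.9 under Python 3.11.15.

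The members, lists and settings were chosen with earlier results of these data known. All markers are described in full. For each comparison the marker with the lowest p is given with its test, and for other lists up to 3 genes with the largest change among those that passed. Plvap, Col4a1, Col4a2, Lamb1, Wnt2, Wnt9b, Rspo3 and the Kupffer cell genes were named after their values were seen. Listed symbols without a probe set of their own included Selp, Ccl21a, Spp1, Ly6c2, Gp1ba, Gp1bb, Serpina1e and Ass1. Same-numbered arrays of different groups did not deviate together on the whole (median correlation of deviations 0.000127 over 30 pairs, 4 of them above 0.1). Replicate numbers were therefore not used to pair the mice. With so few arrays this check cannot exclude a pairing.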

Additional observations from a re-analysis of the deposited data

How the results depend on the processing

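The count of markers that passed stayed at 0 of 10 in each of the 9 comparisons under all 27 other settings, in which between 0 and 2116 genes passed. These comprised a fit without the arrays of other groups, a robust prior that follows intensity, weights for arrays, repeated quantile normalization, centring on array medians, a filter on dim genes (12589 kept), every probe set tested, the replicate block, leaving out the doubted arrays, a sex term, both together, dropping the 3 female-pattern arrays, and leaving out each array. With the replicate number as a block, 1 of these settings, 0 of 10 passed in each comparison. Over these settings at most 1033 and 1167 genes passed in NEMO/Jnk1 DKO and NEMO/Jnk2 DKO against their single knockouts. Against WT at most 1578 and 2116 did, and in Jnk1 KO and Jnk2 KO at most 6 and 248. At most 119 passed between the single knockouts, 97 between the double knockouts and 2 in the difference of the NEMO effects. Where so few genes passed, 0 of 10 says little about the markers. Of 243 recomputed differences of the lowest-p markers 242 kept their sign; that of Fcgr2b between Jnk1 KO and WT ran from -0.0109, without WT replicate 1, to 0.2484 over single arrays left out, and the cause was not tested. The count of 15 capillary and venous genes that rose in NEMO/Jnk2 DKO against WT, 2 as labelled, ran from 0 to 4 over single arrays left out and up to 8 otherwise; in NEMO/Jnk1 DKO, 0 as labelled, it ran from 0 to 3 and up to 7. Without the array labelled Jnk1 KO replicate 1 it was 4 in NEMO/Jnk2 DKO and 3 in NEMO/Jnk1 DKO, and without any one NEMO/Jnk2 DKO or WT array it was 0 in NEMO/Jnk2 DKO. With 3 arrays a group, a change within the intervals given could not be told from none.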
